A study of Homo sapiens with 6 samples.

Results

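Epithelial-mesenchymal transition (EMT) regulators and markers were examined in HK-2 cells, an immortalised line of human proximal tubular epithelium, cultured in high glucose with or without overexpression of hnRNP-F. The members are 10 genes chosen by symbol: the transcription factors SNAI1, SNAI2, ZEB1, ZEB2, TWIST1 and TWIST2, and the markers VIM, FN1, ACTA2 and S100A4. All 10 are among the 31831 genes of the count table, and 9 passed the low-count filter that kept 17142 genes. TWIST2 did not pass it. Gene expression was measured by RNA-seq of poly(A) RNA. The HG-NC group (n = 3) carried the empty vector and the HG-OE group (n = 3) the hnRNP-F vector. The labels call the control a plasmid and the methods describe lentiviral delivery. Both groups were kept in 30 mM glucose for 72 h, so the comparison addresses the effect of the vector within high glucose. Libraries in normal glucose or mannitol were not analysed here, and neither source says whether the cells were a clone or a pool.

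EMT is the shift of epithelial cells from a polarised, junction-bound state towards a migratory, matrix-producing one. SNAI, ZEB and TWIST factors bind E-boxes in DNA, and the SNAI and ZEB families repress epithelial genes such as CDH1, which encodes E-cadherin. Vimentin, fibronectin, smooth muscle alpha-actin and S100A4 are widely used markers of the mesenchymal side. In the kidney tubule, such a shift, often partial, has been studied as a response to TGF-beta, injury and diabetes.

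Library totals lay between 25507595 and 29444841 counts. HNRNPF itself, the gene that was overexpressed, was higher in every HG-OE library, at 435 ± 14.9 against 311 ± 7.23 CPM (read counts scaled to library size with TMM factors, mean ± SD, n = 3 per group), with a log2 fold change of 0.48 (SE 0.0388, edgeR quasi-likelihood test, adjusted p = 2.80e-07). HG-OE replicate 3 stood apart from the other HG-OE libraries, with a correlation of 0.987 against 0.995 between those. It held 4359 counts of ALB, 724 of KRT17 and 384 of CDH1, where the other HG-OE libraries held at most 1, 1 and 10. ALB also had 78 counts in HG-NC replicate 3. The summed level of 16 liver markers was 267 to 278 CPM across the HG-NC libraries, 462 and 464 CPM in HG-OE replicates 1 and 2, and 862 CPM in HG-OE replicate 3. For 12 squamous epithelium markers the sums were 70.9 to 75.9 CPM, 177 and 176 CPM, and 259 CPM in the same order. Of the proximal tubule markers, PAX8, a transcription factor of renal epithelium, was expressed, while LRP2, AQP1 and ANPEP had 7 counts or fewer in every library but HG-OE replicate 3, where they had 17, 5 and 54. The part these libraries play in the results was not tested, and values without HG-OE replicate 3 are given where they move a result.

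The members did not move together. VIM, S100A4 and SNAI1 rose in the HG-OE group, while ZEB2, SNAI2 and FN1 fell. ZEB1, TWIST1 and ACTA2 did not pass the test. Thus 6 of the 9 members tested (66.7%) had an adjusted p under 0.05, where 51.8% of all genes tested did, 25.9% higher and 25.9% lower. By the same measure 3 members (33.3%) were higher and 3 lower. The HG-NC and HG-OE libraries did not overlap for 6 members, which was also the case for 59% of all genes. With 9 genes, these shares lie near the background of the comparison. No member reached the 2-fold threshold by edgeR, DESeq2 or limma with all 6 libraries, against 5.82% of all genes, although 6 had an unadjusted p under 0.05. The median log2 fold change was −0.14 over the 9 members and 0.011 over all genes.

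**Figure D1:**
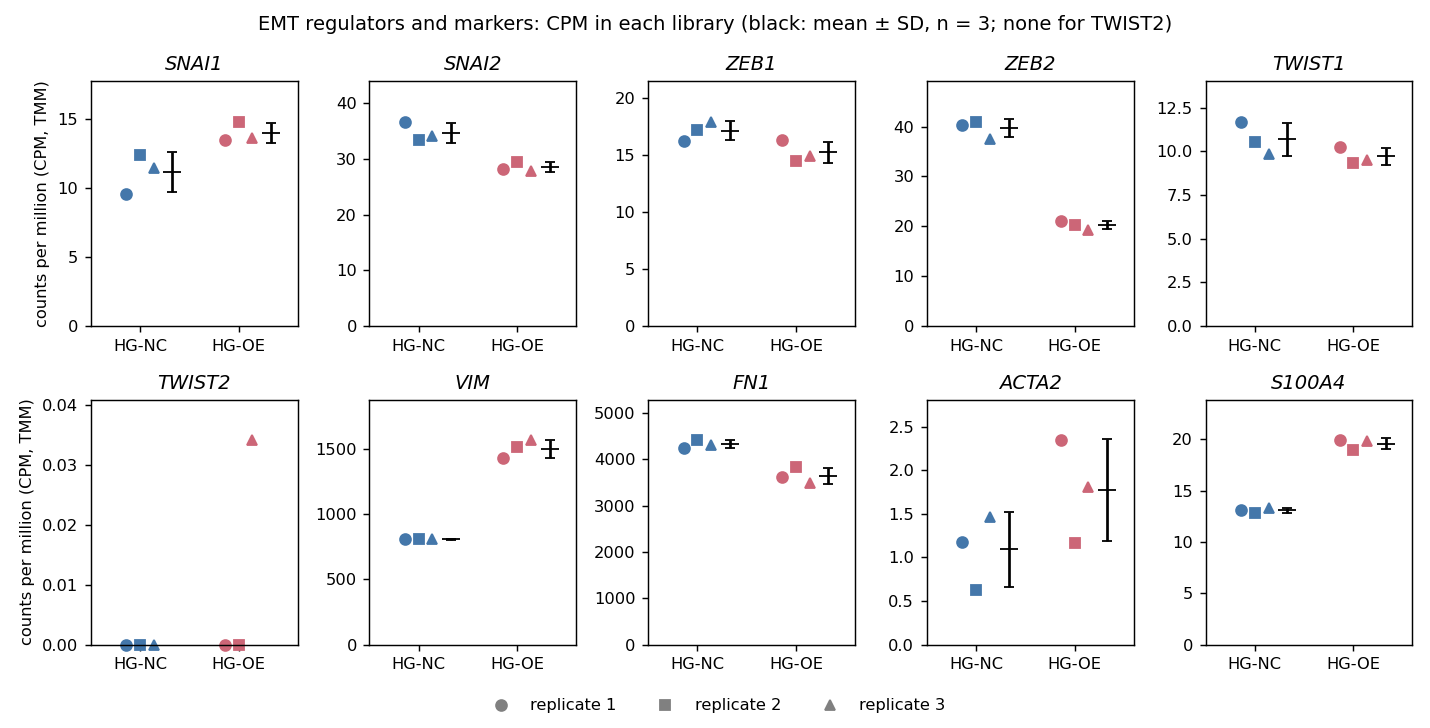
CPM of the 10 members in each library, with HG-NC in blue, HG-OE in red and 1 marker shape per replicate, and the mean ± SD (n = 3) in black for the 9 members tested. Each panel has its own linear axis from 0. VIM and ZEB2 show the widest separation of the groups, while ACTA2, ZEB1 and TWIST1 overlap or lie close together.

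Levels of different genes were compared per length, in the deposited FPKM. The order of genes depends on the lengths behind these values, which were not checked here. In HG-NC, FN1 was the highest member at 225 ± 4.47 FPKM (mean ± SD, n = 3), followed by VIM at 139.69 ± 0.722 FPKM. S100A4 (12.4 ± 0.285 FPKM), SNAI2 (9.46 ± 0.463), SNAI1 (5.85 ± 0.756) and TWIST1 (4.79 ± 0.401) formed a middle range. ZEB1 (1.77 ± 0.0902 FPKM), ZEB2 (1.36 ± 0.0586) and ACTA2 (0.327 ± 0.127) were low. SNAI1 and TWIST1 overlapped across HG-NC libraries, and no other neighbours in this order did. In HG-OE, VIM (256 ± 11.1 FPKM) stood above FN1 (187 ± 8.46 FPKM), and SNAI1 (7.25 ± 0.335 FPKM) and SNAI2 (7.69 ± 0.200 FPKM) overlapped. ACTA2 (0.530 ± 0.175 FPKM) then overlapped ZEB2 (0.683 ± 0.0351 FPKM). Since these are bulk libraries, fewer cells that express a gene and less RNA per cell cannot be told apart.

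SNAI1 encodes Snail, a zinc-finger repressor that responds quickly to TGF-beta and other signals. The gene (ENSG00000124216.4) lies on the plus strand of chromosome 20, from 49982980 to 49988886 (GRCh38). It had 9.60, 12.4 and 11.4 CPM in HG-NC replicates 1 to 3 against 13.5, 14.8 and 13.6 CPM in HG-OE replicates 1 to 3. All HG-OE libraries were above all HG-NC libraries, and HG-NC replicate 1 was the lowest of the set. This gave a log2 fold change of 0.32 (SE 0.101, 95% interval 0.11 to 0.54, edgeR adjusted p = 0.0154), and the exact two-sided permutation test gave p = 0.1, the smallest that 3 libraries against 3 allow. SNAI1 did not pass the test without HG-NC replicate 1, at 0.23 (edgeR adjusted p = 0.0720), or without HG-OE replicate 2, at 0.28 (edgeR adjusted p = 0.0672).

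SNAI2 encodes Slug, the paralog of Snail, which is also expressed in migrating neural crest. The gene (ENSG00000019549.13) lies on the minus strand of chromosome 8, from 48917598 to 48921740. It had 36.7, 33.3 and 34.1 CPM in HG-NC against 28.2, 29.5 and 27.9 CPM in HG-OE. Every HG-OE library was below every HG-NC library. The log2 fold change was −0.28 (SE 0.0581, 95% interval −0.41 to −0.16, edgeR adjusted p = 0.00107, exact permutation p = 0.1), opposite in sign to that of SNAI1. The ratio of SNAI1 to SNAI2 in FPKM was 0.504, 0.717 and 0.646 in HG-NC and 0.923, 0.966 and 0.940 in HG-OE, so the paralogs came to nearly equal levels in HG-OE without overlap of the groups (exact permutation p = 0.1).

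ZEB2 encodes a zinc-finger homeobox repressor that binds paired E-box-like sites and also interacts with SMAD proteins. The gene (ENSG00000169554.22) lies on the minus strand of chromosome 2, from 144364364 to 144521057. It had 40.4, 40.9 and 37.6 CPM in HG-NC against 21.0, 20.3 and 19.3 CPM in HG-OE. The groups lay far apart, with every HG-OE library well below the lowest HG-NC library. Its log2 fold change was −0.97 (SE 0.0605, 95% interval −1.10 to −0.84, edgeR adjusted p = 2.95e-08, exact permutation p = 0.1). The HG-OE level was thus 51.0% of that in HG-NC, just short of the 2-fold threshold, and the log2 fold change was −1.0049 without HG-NC replicate 3 and −1.0005 without HG-OE replicate 1, each past the threshold.

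ZEB1, the paralog of ZEB2 and a direct repressor of CDH1, did not pass the test. The gene (ENSG00000148516.23) lies on the plus strand of chromosome 10, from 31318495 to 31529814. It had 16.3, 17.3 and 17.9 CPM in HG-NC against 16.3, 14.5 and 15.0 CPM in HG-OE. HG-OE replicate 1 lay within the HG-NC range. This gave a log2 fold change of −0.17 (SE 0.0796, 95% interval −0.34 to 0.0011, edgeR adjusted p = 0.0894, exact permutation p = 0.2). The ratio of ZEB1 to ZEB2 in FPKM was 1.22, 1.27 and 1.44 in HG-NC and 2.33, 2.16 and 2.35 in HG-OE. In each group ZEB1 was the higher paralog in FPKM. In CPM, which is not scaled to length, ZEB2 was higher, at 39.6 against 17.2 in HG-NC and 20.2 against 15.2 in HG-OE. Which paralog is higher thus depends on the measure. The FPKM ratio separated the groups without overlap (exact permutation p = 0.1).

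TWIST1 encodes a basic helix-loop-helix factor that pairs with E proteins. The gene (ENSG00000122691.13) lies on the minus strand of chromosome 7, from 19020991 to 19117636. It had 11.7, 10.5 and 9.84 CPM in HG-NC against 10.3, 9.31 and 9.53 CPM in HG-OE. The groups overlapped, and the log2 fold change of −0.14 did not pass (SE 0.0992, 95% interval −0.35 to 0.076, edgeR adjusted p = 0.264, exact permutation p = 0.2). TWIST2 (ENSG00000233608.4, plus strand of chromosome 2, from 238848032 to 238910534), a close relative of TWIST1, had a single count in HG-OE replicate 3 and 0 in the other 5 libraries. A count of 0 allows up to 3 counts, or 0.102 to 0.118 CPM in these libraries, and no fold was computed.

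VIM encodes vimentin, the intermediate filament protein of mesenchymal cells, which cultured epithelial lines also express. The gene (ENSG00000026025.16) lies on the plus strand of chromosome 10, from 17228241 to 17237593. It had 806, 812 and 807 CPM in HG-NC against 1426, 1510.5 and 1565 CPM in HG-OE. The HG-NC libraries were nearly identical and every HG-OE library was far above them. The log2 fold change was 0.89 (SE 0.0379, 95% interval 0.81 to 0.97, edgeR adjusted p = 9.56e-10, exact permutation p = 0.1), or 1.86-fold. VIM was the member with the largest rise among those that passed, and leaving out any 1 library gave 0.86 to 0.93.

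FN1 encodes fibronectin, a matrix glycoprotein that cells bind through integrins. The gene (ENSG00000115414.21) lies on the minus strand of chromosome 2, from 215360440 to 215436073. It had 4245, 4411 and 4319.6 CPM in HG-NC against 3612, 3837 and 3486 CPM in HG-OE. All HG-OE libraries were below all HG-NC libraries. This gave a log2 fold change of −0.25 (SE 0.0362, 95% interval −0.32 to −0.17, edgeR adjusted p = 6.76e-05, exact permutation p = 0.1). The HG-OE level was 84.3% of that in HG-NC, so this marker moved opposite to VIM. The ratio of VIM to FN1 in FPKM was 0.631, 0.612 and 0.621 in HG-NC and 1.31, 1.31 and 1.49 in HG-OE (exact permutation p = 0.1). VIM and FN1 each separated the groups in opposite directions, so their ratio had to separate them as well. This ratio crossed from below to above 1 on the FPKM scale only. In CPM, which is not scaled to length, FN1 stayed above VIM in HG-OE, at 3645 against 1500.

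S100A4, also called fibroblast-specific protein, encodes a small calcium-binding protein that acts on non-muscle myosin. The gene (ENSG00000196154.12) lies on the minus strand of chromosome 1, from 153543613 to 153550136. It had 13.1, 12.8 and 13.3 CPM in HG-NC against 19.9, 19.0 and 19.8 CPM in HG-OE. The replicates were close within each group and the groups did not overlap. The log2 fold change was 0.58 (SE 0.0731, 95% interval 0.42 to 0.74, edgeR adjusted p = 1.70e-05, exact permutation p = 0.1). S100A3 overlaps S100A4 on the same strand by 1930 bases and rose by a similar log2 fold change of 0.49 (SE 0.0692, edgeR adjusted p = 4.95e-05), and how reads in the shared bases were assigned is not given in the sources used here.

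ACTA2 encodes smooth muscle alpha-actin, the marker of myofibroblasts. The gene (ENSG00000107796.13) lies on the minus strand of chromosome 10, from 88935074 to 88991339. It had 30, 17 and 41 counts in HG-NC and 68, 34 and 53 in HG-OE, or 1.18, 0.628 and 1.47 CPM against 2.34, 1.17 and 1.81 CPM. HG-OE replicate 2 lay within the HG-NC range, and the low counts gave a wide interval. This gave a log2 fold change of 0.70 (SE 0.325, 95% interval −0.0026 to 1.40, edgeR adjusted p = 0.0878, exact permutation p = 0.3). It passed without HG-OE replicate 2, at 0.92 (edgeR adjusted p = 0.0330), without HG-OE replicate 3, at 0.68 (edgeR adjusted p = 0.0491), and with the replicate number as a block, at 0.71 (edgeR adjusted p = 0.0377). STAMBPL1 and FAS overlap ACTA2 on the opposite strand, and both fell, with log2 fold changes of −0.79 (edgeR adjusted p = 1.28e-05) and −0.24 (edgeR adjusted p = 0.0112).

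**Figure D2:**
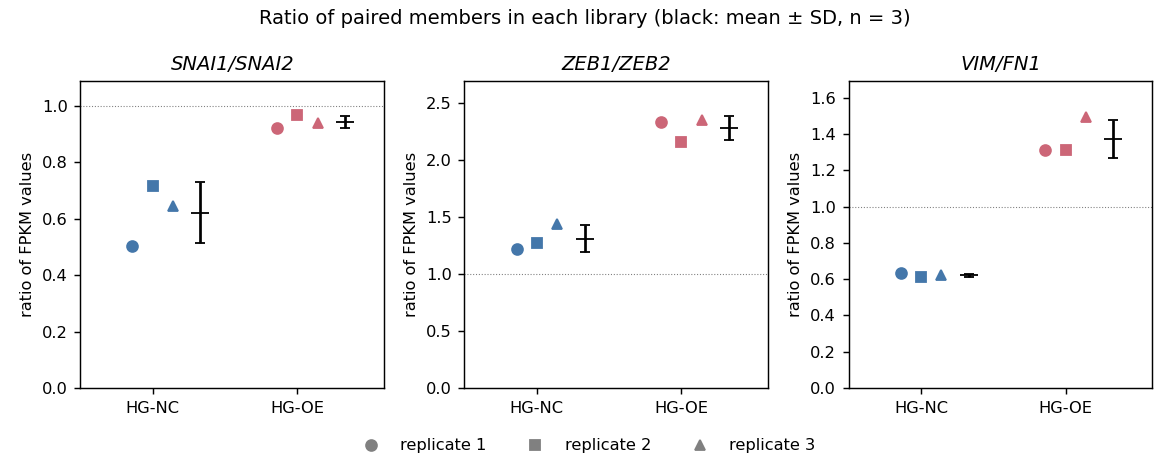
Ratios of FPKM values of SNAI1 to SNAI2, ZEB1 to ZEB2 and VIM to FN1 in each library, with the mean ± SD (n = 3) in black and a dotted line at 1. For all 3 ratios the lowest HG-OE library lies above the highest HG-NC library, and VIM to FN1 goes from about 0.62 to 1.37. For SNAI1 to SNAI2 and VIM to FN1 the separation follows from the opposite shifts of the genes in each pair.

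The sequence before the start of transcription is shown for VIM, S100A4, ZEB2 and FN1, which passed the test, from the RefSeq promoters (GRCh38.p14). It is shown since the factors of the SNAI, ZEB and TWIST families bind E-boxes, and binding to these windows was not measured here. No window was taken for SNAI1, SNAI2 or TWIST1, and whether SNAI2 has an entry was not established. Each run is the 250 bases before the RefSeq start, 5′ to 3′ on the gene's strand, with CACCTG or CAGGTG, the E-box form bound by SNAI and ZEB factors, in capitals. VIM is at chr10:17227991-17228240 on the plus strand. ZEB2 is at chr2:144520120-144520369, FN1 at chr2:215436069-215436318 and S100A4 at chr1:153545807-153546056, all on the minus strand.
VIM: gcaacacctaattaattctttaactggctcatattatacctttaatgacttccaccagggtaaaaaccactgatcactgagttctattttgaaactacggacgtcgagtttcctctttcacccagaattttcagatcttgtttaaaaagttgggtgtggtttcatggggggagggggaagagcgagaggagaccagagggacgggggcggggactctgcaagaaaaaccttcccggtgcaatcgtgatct
S100A4: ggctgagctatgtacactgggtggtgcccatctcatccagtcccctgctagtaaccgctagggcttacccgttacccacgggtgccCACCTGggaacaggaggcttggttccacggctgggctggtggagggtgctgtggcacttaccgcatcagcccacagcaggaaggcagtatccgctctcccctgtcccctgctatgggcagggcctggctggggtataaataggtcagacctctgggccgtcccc
ZEB2: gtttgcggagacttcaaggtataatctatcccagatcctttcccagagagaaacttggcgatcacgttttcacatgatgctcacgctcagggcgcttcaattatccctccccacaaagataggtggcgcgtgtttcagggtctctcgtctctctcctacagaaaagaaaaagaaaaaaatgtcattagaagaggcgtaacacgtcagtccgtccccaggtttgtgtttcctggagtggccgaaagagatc
FN1: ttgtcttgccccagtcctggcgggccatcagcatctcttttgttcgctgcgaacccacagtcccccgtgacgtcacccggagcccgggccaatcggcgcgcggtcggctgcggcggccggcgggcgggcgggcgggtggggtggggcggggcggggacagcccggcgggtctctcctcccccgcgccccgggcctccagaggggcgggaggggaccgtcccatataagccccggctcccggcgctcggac

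Of these, S100A4, which rose, held 1 such E-box, beginning 164 bases before the start. The windows of VIM, ZEB2 and FN1 held none. Searched on both strands, the motif was present in 17.5% of 35116 promoter windows of this length, and the wider E-box CANNTG, which includes it, in 61.8%. ZEB2 held 1 copy of the wider form. The G and C content ran from 46% for VIM to 76.4% for FN1. A match is a description of the letters, not a site of binding, and other start sites of these genes were not searched.

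Genes around a member on its chromosome moved as well. Neighbours were tested genes within 10 Mb with a mean of at least 100 counts. Around ZEB2 their median log2 fold change was −0.35 over 28 genes, and relative to it ZEB2 differed by −0.62. Around FN1, on the same chromosome, the median was −0.20 over 75 genes, which left FN1 −0.048 apart from its neighbours. The fall of FN1 was thus close to that of the genes around it. For VIM the median of 61 neighbours was −0.10, so the difference from the region was 1.00, and for S100A4 it was 0.11 over 208 neighbours, with a difference of 0.48. SNAI1 stood 0.20 above and SNAI2 −0.31 from the median of their neighbours. The 6 members that passed kept their sign against the neighbours, and what the regional shifts come from was not tested.

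**Figure D3:**
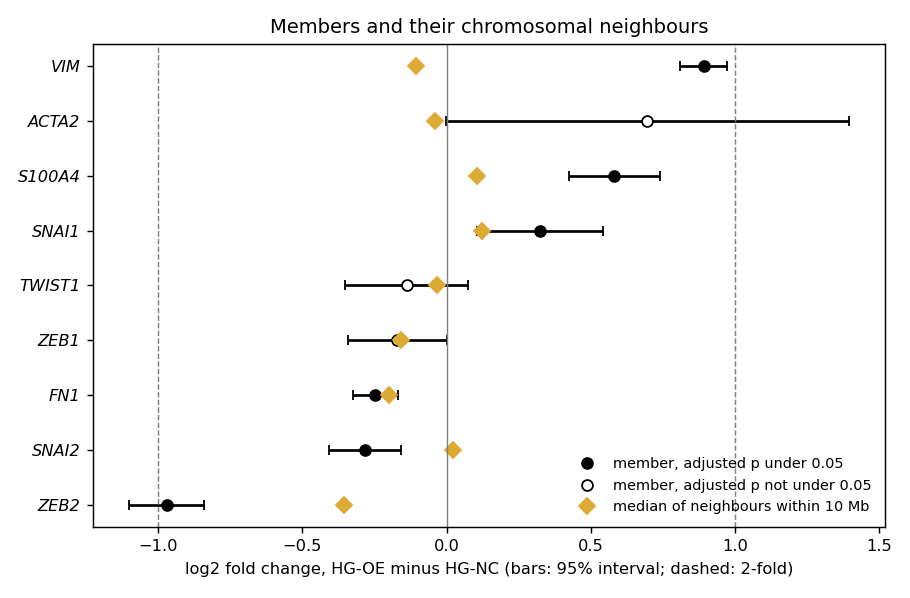
Log2 fold change (HG-OE minus HG-NC) of the 9 members tested, with 95% intervals, filled where the adjusted p was under 0.05. Diamonds give the median of tested genes within 10 Mb with a mean of at least 100 counts. Dashed lines mark 2-fold. FN1 lies near its neighbours at −0.20, while VIM, S100A4, SNAI2 and ZEB2 lie apart from theirs.

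The antisense partners of VIM rose with it. VIM-AS1, which runs across the VIM promoter on the opposite strand, had 209, 320 and 224 counts in HG-NC and 574, 531 and 460 in HG-OE, so its log2 fold change was 0.94 (SE 0.136, edgeR adjusted p = 6.22e-05). A further antisense transcript, RP11-124N14.3, rose by 0.80 on the same scale (SE 0.131, edgeR adjusted p = 1.73e-04). ZEB1-AS1 had a log2 fold change of 0.071 (edgeR adjusted p = 0.682), and ZEB2-AS1 was too low to test. Of the 6 antisense and divergent genes listed, 4 were in the table and 3 tested, of which VIM-AS1 rose. The libraries were made with strand marks, but whether the counting used strand is not given, so reads of a gene and its antisense partner may not be told apart.

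The genes most like ZEB2 and VIM across the 6 libraries, by Pearson r of log2 CPM among 12364 genes with a mean of at least 100 counts, were named as a description. For ZEB2 they were NRG1 (r = 0.9996, log2 fold change −1.30), FAM241A (r = 0.9994, −1.01) and MRTO4 (r = 0.9993, −0.54). For VIM they were RP11-1020A11.3 (r = 0.9998, log2 fold change 0.69), AKR1A1 (r = 0.9995, 0.57) and QARS1 (r = 0.9991, 0.91). All libraries share 1 contrast, so such correlations mostly follow the difference between the groups.

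The counts of each list below are to be read beside all genes tested, of which 25.9% rose and 25.9% fell. Several lists lie near those shares, and no list was tested as a set. Further transcription factors of EMT were mixed. Of 8 tested, 3 rose and 1 fell, with a median log2 fold change of 0.21 against 0.011 for all genes. Without HG-OE replicate 3 the median was 0.076 over 9 genes, since 1 more passed the low-count filter. FOXC2, a forkhead factor of mesenchyme, had 22, 52 and 36 counts in HG-NC and 190, 174 and 137 in HG-OE, and rose past the 2-fold threshold with a log2 fold change of 2.07 (SE 0.236, edgeR adjusted p = 6.79e-06). SOX4 rose by 0.51 and FOXC1, a relative of FOXC2, by 0.48 on the log2 scale, and TCF3 fell by 0.12. TCF3 did not pass the test by limma or without HG-NC replicate 2, HG-NC replicate 3, HG-OE replicate 1 or HG-OE replicate 2. On the other side, regulators that hold the epithelial state went lower or did not pass: of 7 tested, 3 fell and none rose, with a median of −0.41. ELF3, an ETS factor of epithelia, fell by 0.52, KLF5 by 0.41 and KLF4 by 0.37 on the log2 scale. Without HG-OE replicate 3 all 7 fell, and the share of all genes that fell in that fit is not given here.

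Epithelial markers did not fall as a group. Of 14 tested, 8 rose and 4 fell, with a median log2 fold change of 0.32. Without HG-OE replicate 3, 7 rose and 5 fell, and the median was 0.11. KRT8, a keratin of simple epithelia, rose by 1.35 on the log2 scale (1.11 without HG-OE replicate 3) and its partner KRT18 by 0.76 (0.44 without that library). The mucin MUC1 rose by 1.31, the desmosomal plaque protein DSP by 1.08 and the laminin chain LAMA5 by 1.02, and LAMA5 was at 0.96 without HG-OE replicate 3. The rise of ST14 rested on that library, with 18, 13 and 13 counts in HG-NC and 14, 17 and 157 in HG-OE. Other epithelial genes went lower, and of these the tight junction protein CLDN1 fell by 0.87, the adhesion molecule EPCAM by 0.56 and KRT19 by 0.55 on the log2 scale. CDH1, the classical target of the SNAI and ZEB repressors, was nearly silent, with 6, 4 and 2 counts in HG-NC and 5, 10 and 384 in HG-OE, and was not tested. The summed level of the 15 epithelial markers was 2363 to 2375 CPM in the HG-NC libraries, against 2267, 2246 and 2842 CPM in HG-OE replicates 1 to 3.

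Mesenchymal markers outside the 10 members were divided as well. Of 14 tested, 5 rose and 6 fell, with a median log2 fold change of −0.075. PDGFRB, a receptor of fibroblasts and pericytes, was the only one past 2-fold, with 16, 12 and 8 counts in HG-NC and 65, 64 and 59 in HG-OE (log2 fold change 2.25, SE 0.287, edgeR adjusted p = 1.90e-05). It needed the HG-OE libraries to pass the low-count filter. With at least 10 counts required in every library, 4 genes of this list rose. The matrix protein TNC rose by 0.78, the actin-binding CALD1 by 0.74 and the matrix protein SPARC by 0.66 on the log2 scale, while CCN2 fell by 0.60. COL1A2 was listed at 0 in 5 libraries and at 141 counts in HG-OE replicate 3. The summed levels overlapped between the groups, at 5046 to 5146 CPM in the HG-NC libraries and 4894 to 5187 CPM in those of HG-OE. Of 7 fibroblast markers 3 were tested and PDGFRB alone passed with all libraries. Without HG-OE replicate 3 LUM passed as well, with a log2 fold change of −0.40 (edgeR adjusted p = 2.14e-05).

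Genes of the contractile apparatus, to which ACTA2 belongs, were higher in most cases. Of 12 genes tested in the actin and contractile list, 8 rose and 1 fell, where 25.9% of all genes rose and 25.9% fell. The median log2 fold change was 0.31. The 12 include SRF, MRTFA and MRTFB, which regulate transcription and are not contractile proteins. Without HG-OE replicate 3, SRF rose by 0.15 on the log2 scale, and MRTFA and MRTFB did not pass. TAGLN, which encodes the actin-binding protein transgelin, had 521, 585 and 654 counts in HG-NC and 7425, 7257 and 6772 in HG-OE, or 21.8 ± 1.47 against 245 ± 12.8 CPM (n = 3 per group). Its log2 fold change was 3.49 (SE 0.0580, edgeR adjusted p = 1.83e-13), without overlap. The myosin light chain MYL9 rose by 1.17 and LMOD1, at 2 counts in each HG-NC library and 13 to 18 in HG-OE, by 2.78 on the log2 scale. LMOD1 passed the low-count filter through the HG-OE libraries alone, so its test could show only a rise. With at least 10 counts required in every library, 7 genes of this list rose. ACTB rose by 0.39, TPM1 by 0.22 and ACTG1 by 0.15, and ACTC1 fell by 0.56 on the log2 scale. ACTC1 did not pass the test by limma without a filter, or without HG-NC replicate 2 or HG-OE replicate 2. MYH11, the smooth muscle myosin, had 3 counts or fewer in every library.

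Other S100 genes moved in the direction of S100A4. Of 9 tested, 8 rose and none fell, where 25.9% of all genes rose and 25.9% fell. The median log2 fold change was 0.49. S100A2 rose by 1.51, S100A10 by 0.77, S100A1 by 0.61, S100A6 by 0.49 and S100A3 by 0.49 on the log2 scale. The genes of this list that rose lie on chromosome 1 with S100A4. S100A8, S100A9 and S100P, all too low to test, had 50, 231 and 678 counts in HG-OE replicate 3 and at most 10 elsewhere.

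Inputs and partners of the EMT factors moved in both directions. Of 12 genes of TGF-beta input, 5 rose and 2 fell, with a median log2 fold change of 0.11. The receptors TGFBR2 and TGFBR1 rose by 0.92 and 0.64 and the ligand TGFB2 by 0.46 on the log2 scale, while SKIL, a repressor of SMAD signalling, fell by 0.44. Of 10 corepressor genes of the SNAI and ZEB factors, 2 rose and 4 fell, with a median of −0.083 (−0.038 without HG-OE replicate 3). The Polycomb subunit SUZ12 fell by 0.49, HDAC2 by 0.33, the demethylase KDM1A by 0.26 and CTBP2 by 0.24 on that scale. Of 8 partners and inhibitors of TWIST factors, 2 rose and 3 fell, with a median of −0.17. TCF3 and TCF4 are also counted among the further transcription factors above. TCF3 is among those that fell here, and did not pass in the alternatives named there. Without HG-OE replicate 3 the median was −0.26 and 5 fell, 2 of them past 2-fold. HAND2 had 5, 3 and 4 counts in HG-NC and 21, 28 and 17 in HG-OE (log2 fold change 2.30, SE 0.433, edgeR adjusted p = 4.69e-04). It passed the low-count filter through the HG-OE libraries alone, so its test could show only a rise. With at least 10 counts required in every library, 1 gene of this list rose. The inhibitor ID3 fell by 0.91 (log2 fold change −1.10 without HG-OE replicate 3) and ID1 rose by 0.51 (0.34 without that library) on the log2 scale, and TCF12 fell by 0.27. Of 8 receptor subunits that bind fibronectin, 3 rose and 2 fell, with a median of 0.075, and without HG-OE replicate 3 the median was 0.11 and 4 rose. ITGA4 rose by 0.66 and ITGAV by 0.31, and ITGB6 fell by 0.32 and ITGB3 by 0.30 on the log2 scale.

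**Figure D4:**
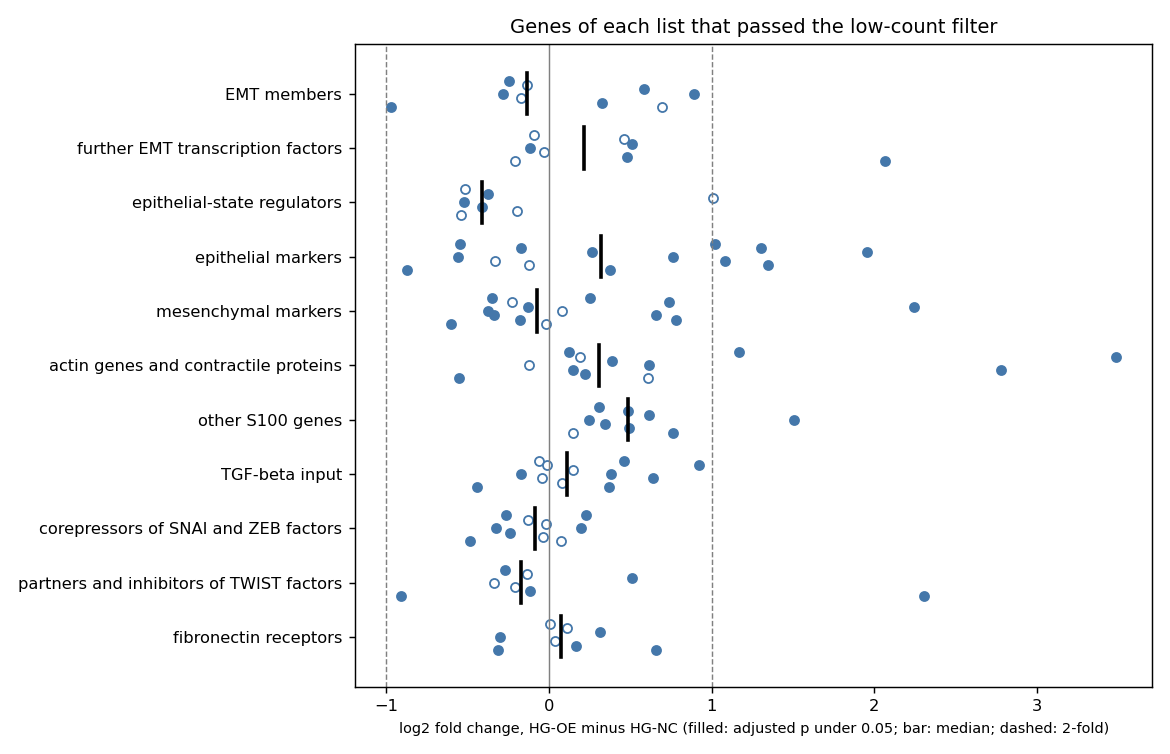
Log2 fold change (HG-OE minus HG-NC) of each gene that passed the low-count filter, for the members and 10 lists of EMT-related genes, filled where the adjusted p was under 0.05, with the median of each list as a black bar and dashed lines at 2-fold. Among the lists drawn, the medians run from −0.41 for the epithelial-state regulators to 0.49 for the other S100 genes, and TAGLN is the point farthest to the right of those drawn at 3.49.

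**Figure D5:**
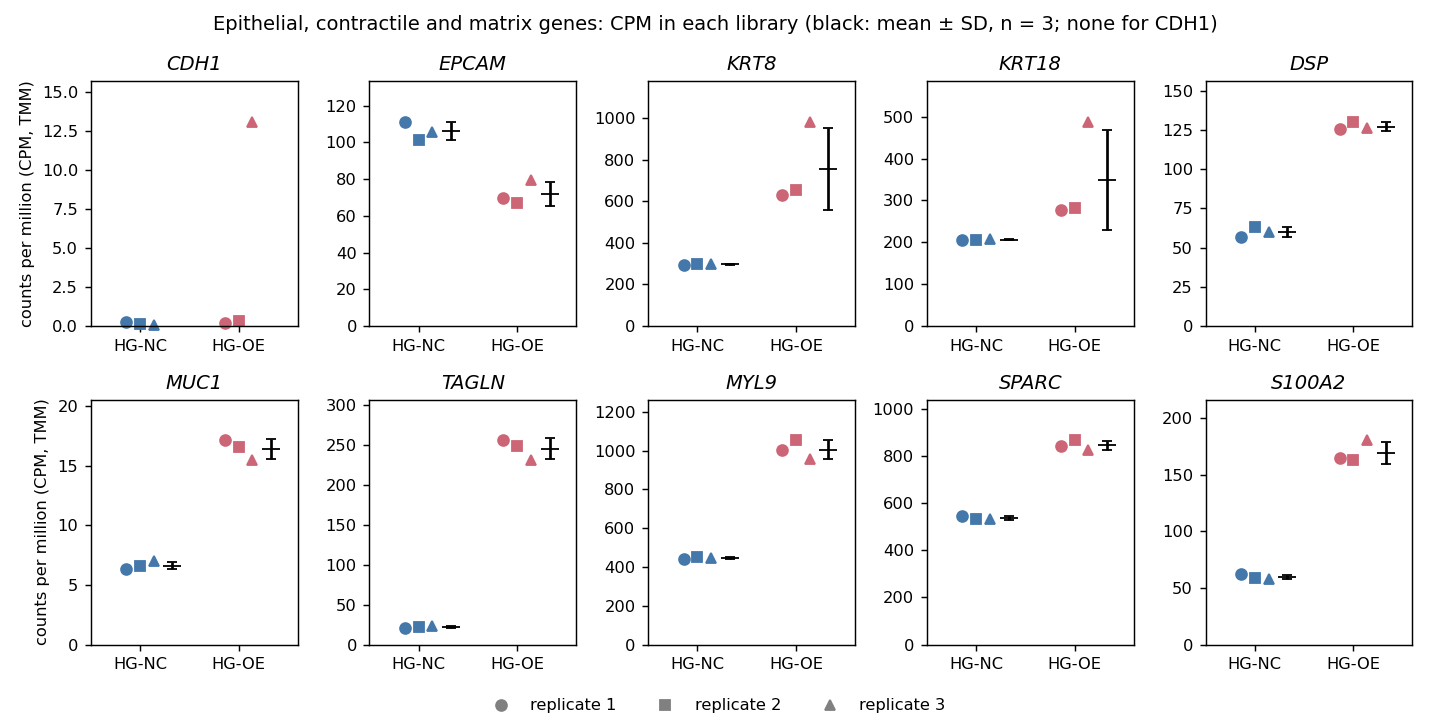
CPM in each library of 10 genes from the epithelial, contractile, matrix and S100 lists, with the mean ± SD (n = 3) in black except for CDH1, which was not tested. Each panel has its own linear axis from 0. CDH1, KRT8 and KRT18 are highest in HG-OE replicate 3, while TAGLN, MYL9, SPARC, DSP, MUC1 and S100A2 are raised in all 3 HG-OE libraries and EPCAM is lowered in all 3.

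Markers of other cell types gave few testable genes. Of 7 proximal tubule markers tested, CDH6 rose by 0.35 and PAX8 fell by 0.51 on the log2 scale. VWF was the only endothelial marker tested, at 6 to 7 counts in HG-NC and 12 to 33 in HG-OE, and rose by 1.73. It passed the low-count filter through the HG-OE libraries alone, so its test could show only a rise. Of 3 leukocyte markers tested CD68 fell by 0.67, with PTPRC at 2 counts or fewer in every library. CD68 did not pass the test without HG-NC replicate 1 or HG-OE replicate 2. Without HG-OE replicate 3 LYZ passed as well, with a log2 fold change of −1.22 (edgeR adjusted p = 0.0273). Of 4 liver markers tested 3 rose, of which SERPINA1 rose by 0.72, FGB by 3.41 (1.73 without HG-OE replicate 3) and AMBP by 5.53 (−1.03 without that library) on the log2 scale. Of 3 squamous epithelium markers tested S100A2 rose. The members that passed with all libraries also passed without HG-OE replicate 3, and no member's sign changed there.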

How the data were processed

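RNA-seq libraries of HK-2 cells in high glucose were compared between HG-NC (n = 3) and HG-OE (n = 3), with groups taken from the labels. The authors trimmed reads with FASTX-Toolkit and aligned them to GRCh38 with HISAT2 (per the labels and methods). The authors deposited unnormalised counts of uniquely mapped reads per gene, and FPKM values that they derived from them. The counting tool, its strand setting and the annotation release are not given in the sources used here. The methods name ComBat_seq, and whether it entered the counts is not stated. The control columns are named NC where the labels have Ctrl, and they were matched as the only control group.

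Differential expression was tested with edgeR 4.0.16 in R 4.3.3 (default low-count filter, TMM, quasi-likelihood test, no covariate), with Benjamini-Hochberg adjustment over 17142 genes. Calls required an adjusted p under 0.05 and at least a 2-fold change, the study's thresholds. Single values were also given an exact two-sided permutation test, whose smallest p is 0.1. The study describes parallel wells of each group and biological replicates, and the labels do not tie the libraries to separate cultures, so p-values measure only the spread between these libraries, which may be technical. Alternatives were DESeq2 1.42.0, its size factors, limma 3.58.1 on log2(FPKM + 1) and log2(FPKM + 0.1), other filters, the replicate block and leaving out each library. The biological coefficient of variation was 0.0683. A count of 0 allows 3 counts, for counting error only. Scripts were tested on simulated data. Positions are from GENCODE on GRCh38, matched by gene ID, and promoters from RefSeq.

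The members and gene lists were chosen with earlier results of these data known. Named are all members, HNRNPF, from each list the genes called and up to 4 more with the largest change among those with an adjusted p under 0.05 and a mean of at least 100 counts, and the 3 genes most correlated with ZEB2 and VIM. Other genes are named as overlapping neighbours, as defining markers, as regulators within a list (SRF, MRTFA and MRTFB) or after their values were seen (S100A8, S100A9, S100P, ESRP1 and ID4).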

Additional observations from a re-analysis of the deposited data

How the results depend on the processing

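VIM, S100A4, ZEB2, SNAI2 and FN1 kept their direction and an adjusted p under 0.05 under all 14 alternatives. SNAI1 passed in 11, ACTA2 in 3, and ZEB1 and TWIST1 in none. The members with an adjusted p under 0.05 numbered 5 to 7, with 5 to 7 when 1 library was left out, and those past 2-fold 0 to 1, where ZEB2 was added without HG-NC replicate 3 or HG-OE replicate 1. SNAI1 had an adjusted p of 0.0756 by limma on log2(FPKM + 1) without a filter. On the log2(FPKM + 1) scale, which understates changes of low genes, ZEB2 had a difference of −0.49. Over all genes, 997 were called, and the count was 1539 without the low-count filter, 617 with at least 10 counts in every library, 144 by limma on log2(FPKM + 1) and 138 by the latter without a filter, 885 by DESeq2, and 989 to 1124 with 1 library left out. The replicate number as a block gave 7 members with an adjusted p under 0.05, 0 past 2-fold and 990 genes called. Same-numbered libraries deviated with correlations of −0.027, 0.030 and −0.00099, so the numbers are not shown to pair the samples. No member changed sign under these alternatives. The liver marker AMBP, the epithelial-state regulator ESRP1 and the liver list median (2.06 to −0.027) changed sign without HG-OE replicate 3. For antisense genes the set itself changed in that fit, from 3 tested (median 0.071) to 4 (median −0.10). ZEB2-AS1 (log2 fold change −0.62) had then passed the low-count filter, while ZEB1-AS1 kept its sign at 0.034. The low counts of ACTA2 and TWIST2 limit what can be said of them.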

Other observations

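Some regulators of the epithelial state and inhibitors of TWIST factors passed the test when HG-OE replicate 3, which held markers of other tissues, was left out, and not with all libraries. These genes were chosen after their values were seen. ESRP1, an epithelial splicing regulator, had 42, 22 and 28 counts in HG-NC and 9, 16 and 178 in HG-OE. With all libraries its log2 fold change was 1.01 (edgeR adjusted p = 0.287), and without HG-OE replicate 3 it was −1.41 (edgeR adjusted p = 0.00228). ID4, an inhibitor of basic helix-loop-helix factors, had 24, 17 and 18 counts in HG-NC and 7, 3 and 41 in HG-OE, with a log2 fold change of −0.34 (edgeR adjusted p = 0.679) that became −2.07 (edgeR adjusted p = 6.87e-04) without that library. The part of HG-OE replicate 3 in these values was not tested further.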
